A study of Mus musculus with 17 samples.

Results

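The RNAs described here are the small nucleolar RNAs (snoRNAs) and the transcripts of genes that carry them in their introns, measured in whole mouse embryos at mid-gestation (E12.5, the embryonic day). They were chosen by name. A probe set, the group of array probes that gives 1 value, was taken as a member where its single annotated symbol starts with Snora, Snord or Snhg or is Gas5. This gave 93 of the 39137 probe sets on the arrays, with 88 gene symbols. Of them, 28 probe sets report box H/ACA snoRNAs (Snora, 26 symbols), 47 report box C/D snoRNAs (Snord) and 18 report host gene RNAs (Snhg, 15 symbols). Probe sets that carry several symbols, 44 of them with a snoRNA or host gene symbol, were left out. The probe set of Gas5 was among these, since it also carries the symbol of a microRNA, so no Gas5 value entered. The 2 probe sets of Snora19 hold identical values on every array and are 1 measurement.

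The study set mouse mutants of Klf3, a zinc finger transcription factor of the Krüppel-like family, against one another and against wild-type embryos. There were 4 CH homozygotes and 2 CH heterozygotes from a mixed B6;129 line with a gene trap in the first intron of Klf3. There were also 3 Klf3 H275R homozygotes and 4 Klf3 H275R heterozygotes, which carry an amino acid change in a zinc finger of KLF3 from a chemical mutagenesis screen and are largely of C57BL/6J background, and 4 Klf3+/+ (WT) embryos. No group received a treatment, and litters were matched only where that could be done. The labels do not give the line of the WT embryos or the scan dates of the arrays. The CH allele, its background and any difference in array handling therefore cannot be told apart in CH against WT or CH against H275R. Each array holds RNA of 1 whole embryo as far as the labels say, and whether embryos of 1 genotype had different parents is not stated. The p-values therefore measure the spread between these arrays. In whole embryos, fewer cells of a type and less RNA per cell cannot be told apart.

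SnoRNAs are short RNAs of the nucleolus that guide the chemical modification of ribosomal RNA. Box H/ACA snoRNAs guide pseudouridylation and box C/D snoRNAs guide 2′-O-methylation, and a few of either class instead act in the cleavage of the ribosomal RNA precursor. In mammals most of them are released from introns after splicing. Their hosts are often genes of ribosomal proteins, translation factors or nucleolar proteins, or Snhg genes, whose spliced RNAs make little or no protein. The deposited values are log2 levels after robust multiarray averaging, and all levels and differences below are on that scale. Array probes over an intron can detect the mature snoRNA and unspliced host RNA alike, and the RNA was cleaned on columns that can lose short RNA. How much of a value came from each was not tested.

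Klf3 itself lay between 5.27 and 6.13 in CH homozygotes and between 9.09 and 9.80 on the other 13 arrays. The array WT 4 stands apart from the other WT arrays. On the first principal component of all probe sets, which holds 19.4% of the variance, WT 4 is at 20.1, the 6 CH arrays lie between 4.34 and 32.1 and the other 10 arrays between -29.2 and -0.45. Counts of members and medians of differences from WT are therefore given with and without WT 4. The Y-linked gene Kdm5d was high in CH homozygote 3, CH heterozygote 1, H275R homozygote 1 and WT 2. The mean of 15 cartilage genes ranged from 7.91 to 8.93 in CH homozygotes, from 7.84 to 8.68 in CH heterozygotes, from 8.15 to 8.29 in H275R homozygotes, from 8.25 to 8.35 in H275R heterozygotes and from 7.84 to 8.34 in WT.

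Mean levels of the members over the 17 arrays ranged from 4.50 to 12.32, with a median of 8.08. RMA values of different probe sets also depend on the probes, so no level was ranked against that of another. The members lie on 20 chromosomes, and 1 of them lies on chromosome 5, where Klf3 is.

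As a class, the H/ACA snoRNAs had higher levels in the CH line than in the H275R line. The median over the H/ACA members was 8.05, 8.06, 8.11 and 8.21 on the arrays of CH homozygotes and 8.31 and 8.34 on those of CH heterozygotes. It lay between 7.73 and 7.97 in H275R homozygotes, between 7.63 and 7.92 in H275R heterozygotes, and between 7.70 and 8.19 in WT, where the highest value is that of WT 4. Every CH array thus had a higher H/ACA median than every H275R array. For the C/D members the ranges overlapped, with 7.92 to 8.45 in CH homozygotes, 7.93 and 8.09 in CH heterozygotes, 7.70 to 8.06 in H275R homozygotes, 7.55 to 8.03 in H275R heterozygotes and 7.67 to 8.42 in WT. The medians of the host RNAs differed little, with 8.60 to 8.82 in CH homozygotes, 8.57 and 8.72 in CH heterozygotes, 8.65 to 8.70 in H275R homozygotes, 8.49 to 8.60 in H275R heterozygotes and 8.55 to 8.66 in WT.

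**Figure D1:**
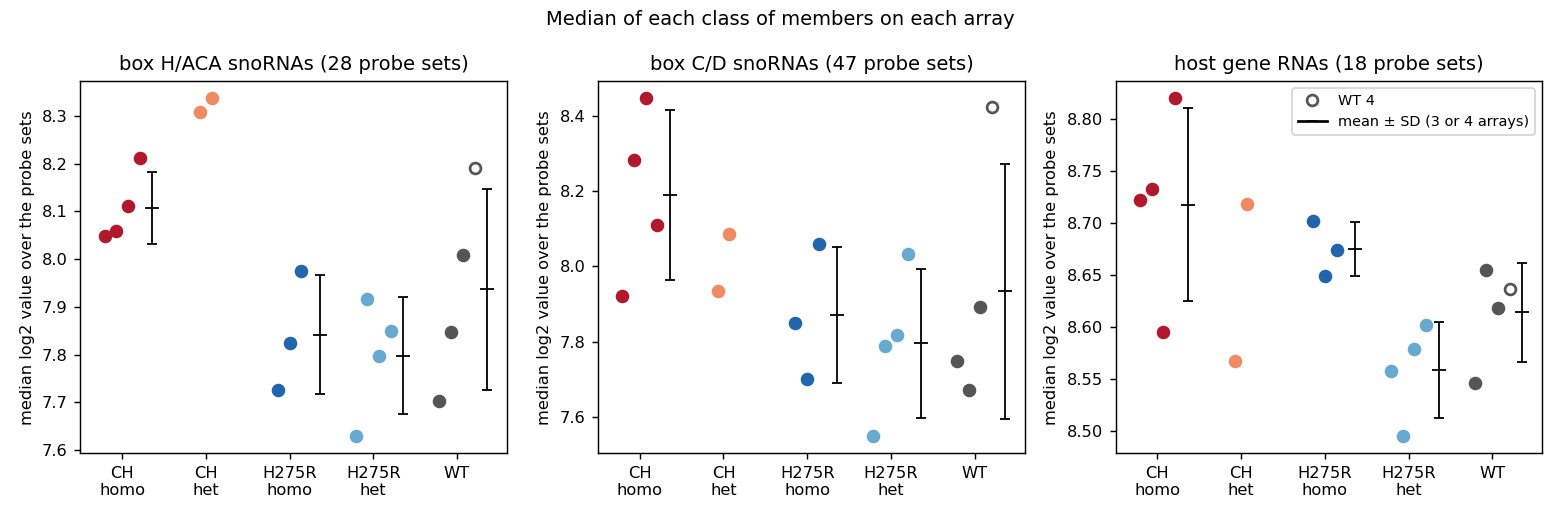
Median log2 value over the box H/ACA snoRNA, box C/D snoRNA and host RNA probe sets (vertical axes) on each of the 17 arrays, grouped by genotype (horizontal axis), with WT 4 as an open circle and black bars for mean and SD of the groups of 3 or 4 arrays. The H/ACA medians of the 6 CH arrays lie above those of the 7 H275R arrays, and WT 4 lies with the CH arrays in both snoRNA classes.

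Of the 93 members, 28 passed in the comparison of the CH line with the H275R line, all of them higher in CH. Passing means an adjusted p under 0.1 in limma, over all probe sets. The comparison sets the mean of both CH genotypes against the mean of both H275R genotypes, and 4.81% of all probe sets passed it, 2.43% as higher. By class, 9 of 28 H/ACA, 12 of 47 C/D and 7 of 18 host RNA probe sets passed. The median difference was 0.33 for the H/ACA members, 0.27 for the C/D members, 0.12 for the host RNAs and 0.25 for all 93, against 0.01 for all probe sets. At an unadjusted p under 0.05, 51 members were higher and 3 were lower, which is 54 members beside 17% of all probe sets. For 16 members every CH array lay above every H275R array, against 1.02% of all probe sets, and all 16 were among the 28. The 28 lie on 13 chromosomes. The count rests most on CH heterozygote 2, without which 5 members (Snora31, Snora75, Snord73a, Snord22 and Snord65) and 0.769% of all probe sets passed. The same 5 passed whichever of the 13 arrays was left out. The count was 12 to 18 without CH homozygote 3 or 4, H275R homozygote 1 or 2, or H275R heterozygote 1 or 2. All of these were higher in CH, beside 1.71% to 3.19% of all probe sets passing. Leaving out either CH heterozygote leaves 1 in that group. The median difference of all members was then 0.26 without CH heterozygote 1 and 0.27 without CH heterozygote 2. Some members passed as lower without CH heterozygote 1 and in other fits. With array medians set equal 22 passed, 21 as higher, beside 5.49%. Among probe sets above the median level 35 of 76 members passed, 33 as higher, beside 14.3%.

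**Figure D2:**
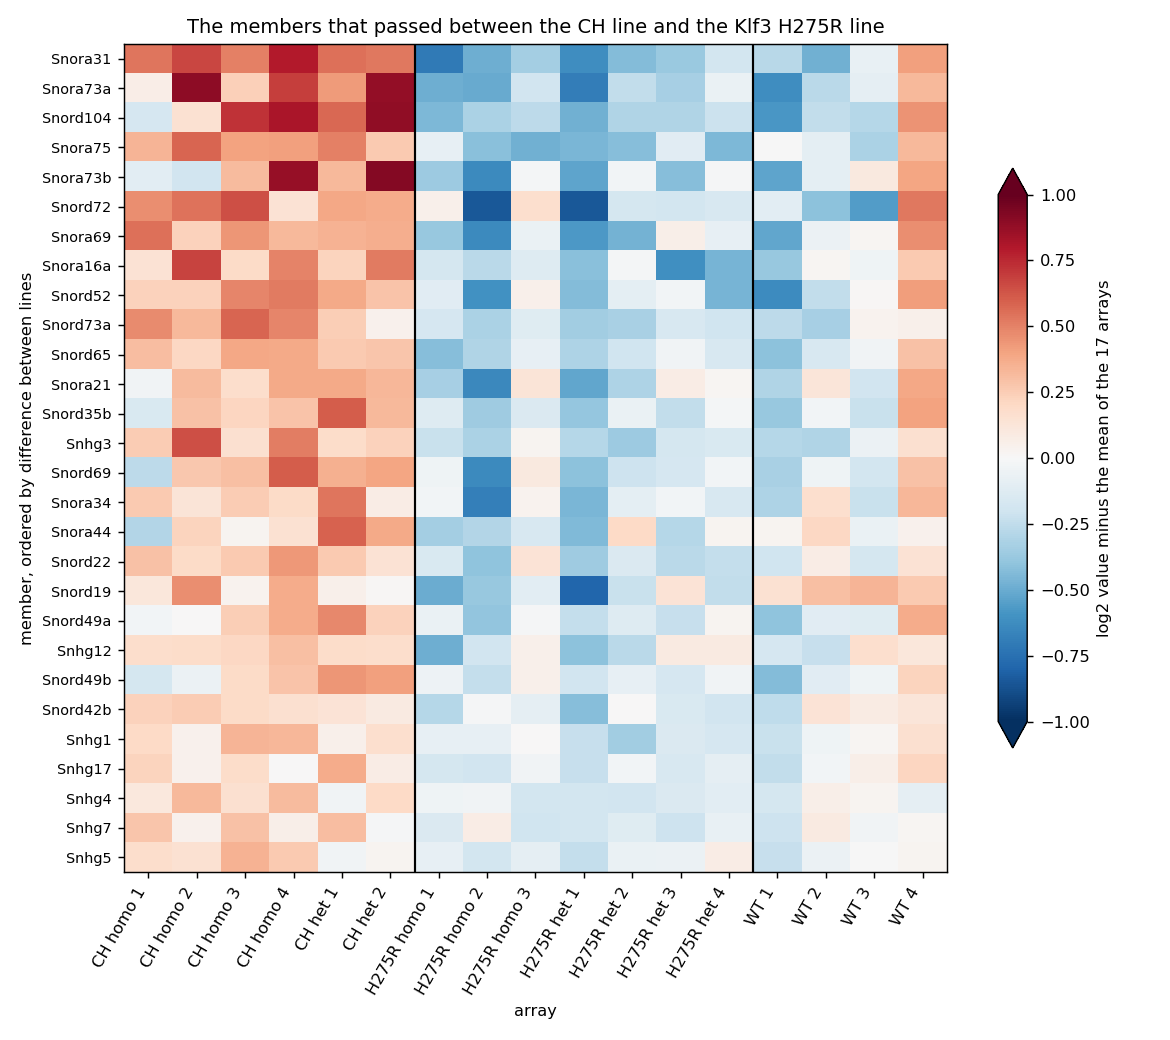
The 28 member probe sets that passed between the CH line and the H275R line (vertical, ordered by difference) on the 17 arrays (horizontal), coloured by the log2 value minus the mean of the member over all arrays. The 6 CH arrays at the left are mostly above the mean, the 7 H275R arrays in the middle mostly below, and of the WT arrays at the right WT 4 is mostly above it.

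Markers of other tissues also differed between the lines. The mean of 8 neuronal genes ranged from 10.56 to 10.63 in CH homozygotes, from 10.45 to 10.50 in CH heterozygotes, from 10.66 to 10.79 in H275R homozygotes, from 10.68 to 10.81 in H275R heterozygotes and from 10.52 to 10.74 in WT. Every CH array thus lay below every H275R array, and the lowest WT value was that of WT 4. All 8 genes had differences below 0 between lines, and 2 passed. The mean of the 8 erythroid genes measured, of 10 listed, ranged from 8.39 to 9.29 in CH homozygotes, from 8.91 to 9.41 in CH heterozygotes, from 8.22 to 8.59 in H275R homozygotes, from 8.74 to 8.83 in H275R heterozygotes and from 8.69 to 9.28 in WT. The lines overlapped, all 8 had differences above 0, and 3 passed. The mean of 8 hepatocyte genes, of 9 listed, ranged from 9.18 to 10.3 in CH homozygotes, from 8.91 to 10.4 in CH heterozygotes, from 9.06 to 9.39 in H275R homozygotes, from 9.36 to 9.68 in H275R heterozygotes and from 9.34 to 9.81 in WT, and 1 of the 8 passed as higher. Of the 15 cartilage genes 1 passed, as lower, and of 6 cardiac muscle genes 0 passed. The genes of these 5 lists had levels between 5.62 and 13.2. With the cartilage mean as a covariate 37 members passed between lines, among them all 28, beside 9.79% of all probe sets. With Kdm5d as a covariate 21 passed, all among the 28, beside 5.09%. The part of the neuronal, erythroid and hepatocyte markers in the differences of the members was not tested.

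Among the H/ACA snoRNAs, Snora31, which lies in an intron of Tpt1, had the smallest p. Its levels were 8.39, 8.52, 8.36 and 8.65 in CH homozygotes and 8.40 and 8.38 in CH heterozygotes. They were 7.15, 7.36 and 7.52 in H275R homozygotes, 7.23, 7.42, 7.48 and 7.67 in H275R heterozygotes, and 7.58, 7.38, 7.78 and 8.26 in WT. All CH arrays lay above all others, with WT 4 the nearest. The CH line averaged 8.45 ± 0.11 (SD, n = 6) and the H275R line 7.41 ± 0.18 (SD, n = 7). The fitted difference was 1.04 ± 0.13 (SE), or 2.05-fold, with an adjusted p of 0.00290 (limma). Snora31 also passed in CH homozygotes against H275R homozygotes, by 1.14 ± 0.17 (SE, adjusted p = 0.0329, limma), and against H275R heterozygotes, by 1.03 ± 0.16 (SE, adjusted p = 0.0318, limma). These comparisons share the CH homozygotes and are not independent of each other.

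Snora75, in an intron of Ncl, the gene of the nucleolar protein nucleolin, had the next smallest p. Its levels were 9.16, 9.40, 9.22 and 9.23 in CH homozygotes and 9.33 and 9.08 in CH heterozygotes. They were 8.74, 8.40 and 8.34 in H275R homozygotes, 8.36, 8.39, 8.70 and 8.37 in H275R heterozygotes, and 8.82, 8.72, 8.50 and 9.15 in WT. The groups of the 2 lines did not overlap, and of the WT arrays WT 4 alone was in the range of the CH arrays. The difference between lines was 0.75 ± 0.11 (SE, adjusted p = 0.00584, limma). Snord82, the C/D snoRNA of the same host gene, did not follow it between lines, with a difference of 0.16 ± 0.10 (SE, adjusted p = 0.472, limma).

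**Figure D3:**
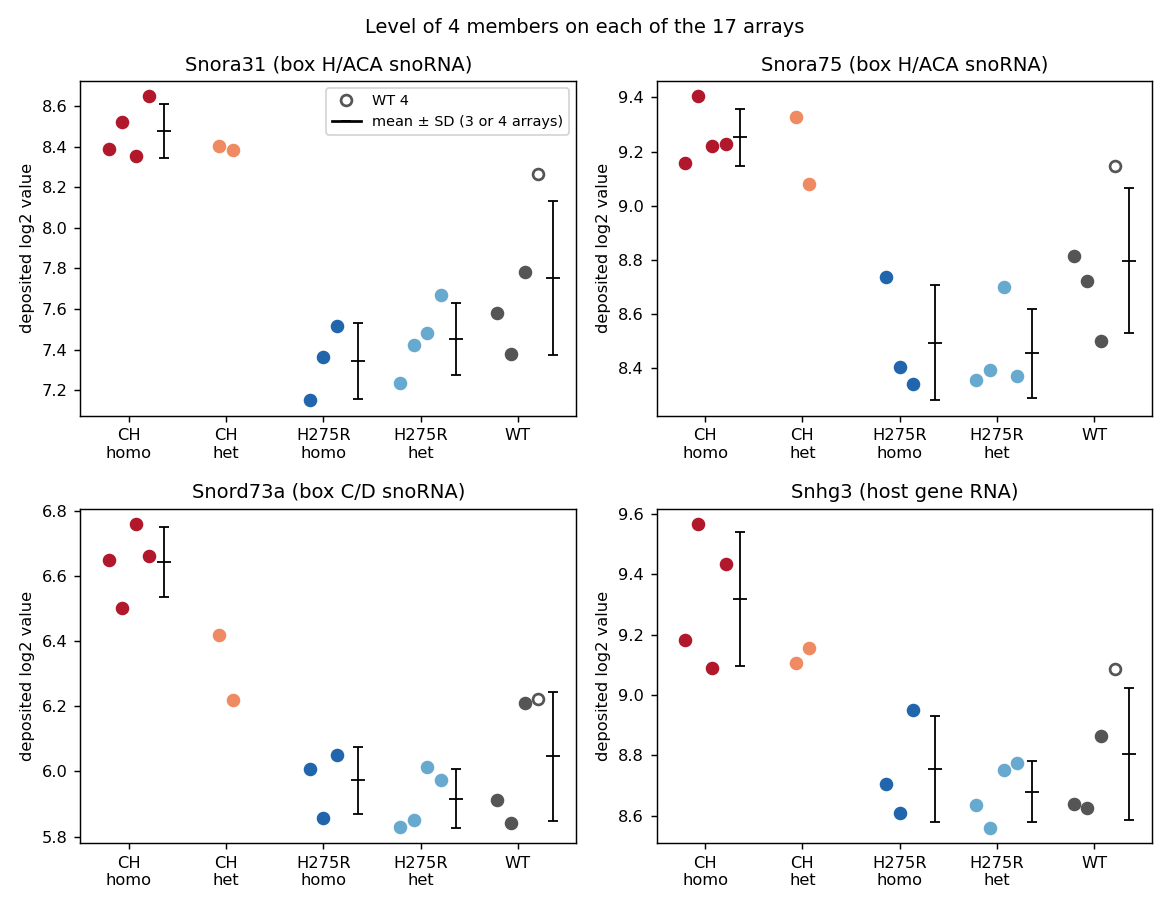
Deposited log2 level (vertical axes) of Snora31, Snora75, Snord73a and Snhg3 on each array by genotype (horizontal axis), with WT 4 as an open circle and black bars for mean and SD of the groups of 3 or 4 arrays. In all 4 panels every CH array lies above every H275R array, and WT 4 is the highest WT array.

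The largest difference among the other H/ACA members was that of Snora73a, a copy of the U17 snoRNA, which acts in the processing of the 18S ribosomal RNA. Its lowest, median and highest levels were 8.51, 9.0 and 9.34 on the CH arrays, against 7.75, 8.11 and 8.38 on the H275R arrays. The difference was 0.93 ± 0.17 (SE, adjusted p = 0.0220, limma). Its sister copy Snora73b, from another intron of the same host, reached 8.34, 8.85 and 9.45 on the CH arrays, against 7.89, 8.17 and 8.52 on the H275R arrays, and the ranges overlapped. It passed with a difference of 0.72 ± 0.20 (SE, adjusted p = 0.0785, limma). Probes for copies this alike may share signal.

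Snora16a, a snoRNA of the host Snhg12, had levels of 9.50, 9.72 and 10.03 on the CH arrays, against 8.74, 9.08 and 9.34 on the H275R arrays (lowest, median and highest). The ranges did not overlap and the difference was 0.66 ± 0.13 (SE, adjusted p = 0.0238, limma). Snora69, from the ribosomal protein gene Rpl39, averaged 9.83 ± 0.11 on the CH arrays (SD, n = 6), against 9.14 ± 0.28 on the H275R arrays (SD, n = 7), again without overlap. Its difference was 0.68 ± 0.15 (SE, adjusted p = 0.0375, limma). Snora34 did not overlap between lines either, with a difference of 0.46, while Snora21 and Snora44 overlapped and passed with 0.51 and 0.45. The adjusted p of these 3 lay between 0.0497 and 0.0986 (limma). The H/ACA member farthest in the other direction was Snora78, with 7.12, 7.30 and 7.54 on the CH arrays, against 7.44, 7.57 and 8.05 on the H275R arrays. Its difference of -0.37 ± 0.13 (SE) did not pass, with an adjusted p of 0.148 (limma).

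Among the C/D snoRNAs, Snord73a, from an intron of the ribosomal protein gene Rps3a1, had the smallest p. Its levels were 6.65, 6.50, 6.76 and 6.66 in CH homozygotes and 6.42 and 6.22 in CH heterozygotes. They were 6.01, 5.86 and 6.05 in H275R homozygotes, 5.83, 5.85, 6.01 and 5.97 in H275R heterozygotes, and 5.91, 5.84, 6.21 and 6.22 in WT. The CH homozygotes lay above every other array. The CH heterozygotes lay above the H275R arrays, and WT 3 and WT 4 were level with the lower of them. The difference between lines was 0.54 ± 0.08 (SE, adjusted p = 0.00771, limma). Its neighbour Snord73b, in the same host, had a difference of 0.37 ± 0.11 (SE) with an adjusted p of 0.102 (limma).

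Snord104 had the largest difference of the C/D members that passed. Its levels were 10.66, 10.98, 11.55 and 11.65 in CH homozygotes and 11.40 and 11.71 in CH heterozygotes. They were 10.38, 10.51 and 10.57 in H275R homozygotes, 10.35, 10.53, 10.53 and 10.61 in H275R heterozygotes, and 10.25, 10.58, 10.54 and 11.28 in WT. The lines did not overlap, although CH homozygotes 1 and 2 lay well below the other CH arrays, and WT 4 lay within the CH range. The difference was 0.89 ± 0.18 (SE, adjusted p = 0.0260, limma).

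Snord22, the U22 RNA that is needed for 18S ribosomal RNA processing in Xenopus, had levels of 7.47, 7.59 and 7.76 on the CH arrays, against 6.93, 7.09 and 7.46 on the H275R arrays (lowest, median and highest). The ranges came close, with CH heterozygote 2 just above H275R homozygote 3. The difference was 0.45 ± 0.09 (SE, adjusted p = 0.0262, limma). Snord65 had 9.50, 9.59 and 9.68 on the CH arrays, against 8.87, 9.09 and 9.26 on the H275R arrays, without overlap, and a difference of 0.52 ± 0.10 (SE, adjusted p = 0.0238, limma). Snord49a and Snord49b, which lie in the same host RNA as Snord65, overlapped between lines and passed with differences of 0.40 and 0.34. The other 6 that passed were Snord72, Snord52, Snord35b, Snord69, Snord19 and Snord42b, with differences between 0.32 and 0.69. Snord19, at a low mean level of 4.67, had medians of 4.76 on the CH arrays, 4.43 on the H275R arrays and 4.96 in WT.

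The size of a difference and its passing did not go together for Snord13, the U13 RNA, which in human cells is needed for acetylation of 18S ribosomal RNA and is made from a gene of its own. Its levels were 7.92, 8.28, 8.82 and 6.56 in CH homozygotes and 7.17 and 6.46 in CH heterozygotes. They were 6.55, 6.26 and 6.45 in H275R homozygotes, 6.10, 6.91, 6.34 and 5.84 in H275R heterozygotes, and 6.14, 6.77, 6.04 and 8.58 in WT. CH homozygotes 1 to 3 and WT 4 were high, and CH homozygote 4 and CH heterozygote 2 were within the range of the H275R arrays. The difference of 1.0 ± 0.42 (SE) between lines did not pass, with an adjusted p of 0.231 (limma). Snord58b had the lowest difference of all members, -0.66 ± 0.23 (SE, adjusted p = 0.146, limma), which came mainly from 5.30 in CH homozygote 3 and 5.75 in CH heterozygote 2. The other 4 CH arrays had 6.57 to 6.78, against 6.65 to 7.30 on the H275R arrays, and the ranges overlapped.

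Of the 15 Snhg host genes, 7 passed with at least 1 probe set. Snhg3, the host of Snora73a and Snora73b, had the largest difference. Its levels were 9.18, 9.57, 9.09 and 9.43 in CH homozygotes and 9.11 and 9.15 in CH heterozygotes. They were 8.71, 8.61 and 8.95 in H275R homozygotes, 8.64, 8.56, 8.75 and 8.77 in H275R heterozygotes, and 8.64, 8.62, 8.87 and 9.09 in WT. The lines did not overlap, and the difference was 0.51 ± 0.10 (SE, 1.42-fold, adjusted p = 0.0259, limma). Among the others, Snhg1, which holds Snord22 and was one of the first host genes found to have a spliced RNA without a protein product, had 9.77, 9.91 and 10.07 on the CH arrays, against 9.39, 9.59 and 9.73 on the H275R arrays, without overlap. The difference was 0.30 ± 0.07 (SE, adjusted p = 0.0444, limma). Snhg12, the host of Snora16a, Snora44, Snora61 and Snord99, had a difference of 0.37 ± 0.11 (SE, adjusted p = 0.0912, limma) with no overlap. Snhg4, Snhg5, Snhg7 and 1 of the 3 probe sets of Snhg17 passed with differences of 0.28, 0.21, 0.28 and 0.30, and the other probe sets of Snhg17 had 0.05 and 0.13 without passing.

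The other 8 host genes did not pass. Snhg6, Snhg10, Snhg15 and Snhg20 had differences between 0.07 and 0.12. Snhg14, the long host RNA of the Prader-Willi region, ranged from 8.26 to 9.88 over all arrays and had a difference of 0.06 ± 0.23 (SE), and the 2 probe sets of Snhg11 had -0.01 and -0.06. Snhg9 and Snhg18 had differences below 0, of -0.17 ± 0.06 and -0.28 ± 0.14 (SE), and adjusted p of 0.162 and 0.349 (limma). Snora78, which lies in the span of Snhg9, also had a difference below 0, as given above.

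The start regions of the host genes are shown for Snhg3 and Snhg1, which passed, and for Snhg18, which had the lowest difference of the hosts. RefSeq promoter sequences on build GRCm38.p6 were used for 13 of the 15 Snhg symbols, all but Snhg4 and Snhg6. The sequences were 14 windows of 300 bases, from 250 before the start to 50 after it. They were searched on both strands for CACCC, which reads GGGTG on the other strand and is the core of the box that Krüppel-like factors bind. They were also searched for CCGCCC, which reads GGGCGG on the other strand and is the GC box of the related Sp factors. Matches of both motifs can share bases. CACCC was found in 3 of the 14 windows, in those of Snhg9, Snhg15 and Snhg18, and in 57.5% of all 32841 promoter windows of that length. CCGCCC was found in 8 of the 14 and in 35.7% of all. Of the hosts that passed, Snhg4 was not searched. No window of the others held CACCC, which says only that these letters are not there. The sequences run 5′ to 3′ on the strand of the gene, and capitals mark CACCC or GGGTG.
Snhg3 (chr4:132353637-132353936, minus strand): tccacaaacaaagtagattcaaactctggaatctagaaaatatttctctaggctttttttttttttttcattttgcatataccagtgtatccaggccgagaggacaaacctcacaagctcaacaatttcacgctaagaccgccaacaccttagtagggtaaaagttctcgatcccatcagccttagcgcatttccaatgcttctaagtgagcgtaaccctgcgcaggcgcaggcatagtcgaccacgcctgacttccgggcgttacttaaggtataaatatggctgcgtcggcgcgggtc
Snhg1 (chr19:8723237-8723536, plus strand): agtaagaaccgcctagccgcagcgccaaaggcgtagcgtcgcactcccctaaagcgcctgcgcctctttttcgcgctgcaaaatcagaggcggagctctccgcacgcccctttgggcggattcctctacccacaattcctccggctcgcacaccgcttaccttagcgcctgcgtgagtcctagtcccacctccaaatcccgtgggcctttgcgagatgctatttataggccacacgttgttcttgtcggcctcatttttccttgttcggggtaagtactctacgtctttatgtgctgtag
Snhg18 (chr15:32244613-32244912, minus strand): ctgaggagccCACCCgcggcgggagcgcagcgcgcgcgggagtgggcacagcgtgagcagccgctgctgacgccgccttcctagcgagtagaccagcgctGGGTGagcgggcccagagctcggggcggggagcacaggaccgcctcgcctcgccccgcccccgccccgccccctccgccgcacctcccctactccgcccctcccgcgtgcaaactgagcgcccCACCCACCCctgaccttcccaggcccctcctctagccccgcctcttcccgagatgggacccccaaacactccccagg

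Most snoRNAs were set beside the gene whose span holds them. A span was taken from the RefSeq gene table without regard to strand, since the table gives none, so a few of these genes may lie on the other strand. Apart from Snhg genes, 40 such genes were measured, with a median level of 10.6. Their median difference between lines was 0.11, with 32 of 40 above 0, beside 54.2% of all probe sets. The 52 snoRNAs in them had a median of 0.24. Of the 40 genes, 6 passed as higher and 1, Zbed3, as lower, beside 4.81% of all probe sets passing and 2.43% passing as higher. Gnl3, the gene of the nucleolar protein nucleostemin, had 0.29 ± 0.06 (SE, adjusted p = 0.0261, limma), and Wdr43, a factor of ribosomal RNA processing, had 0.34 ± 0.07 (SE, adjusted p = 0.0371, limma). Nop58, a core protein of C/D snoRNPs and itself a host, had 0.25 ± 0.07 (SE, adjusted p = 0.0798, limma), while the snoRNAs Snord11 and Snord70 in its introns had 0.18 and 0.15 and did not pass.

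For the snoRNAs with the smallest p, the host values were uneven. Ncl, the host of Snora75, had a difference of 0.18 ± 0.07 (SE, adjusted p = 0.171, limma), and Tpt1, the host of Snora31, 0.11 ± 0.09 (SE, adjusted p = 0.552, limma). Rps3a1, the host of Snord73a, had 0.98 ± 0.13 (SE, adjusted p = 0.00406, limma), and Rpl3 had 0.90 ± 0.17 (SE, adjusted p = 0.0214, limma), although its snoRNAs Snord43 and Snord83b had 0.27 and 0.10 and did not pass. The probe sets used for Tpt1, Rps3a1, Rpl3 and 6 others carry numbers more than 1000 away from those of their snoRNAs, whereas the other 31 lie within 1000 of them. These 9 probe sets may lie elsewhere in the genome, so their values are uncertain. For Rps3a1, Rpl3 and the other ribosomal protein genes among the 9, signal of the many processed copies that such genes have in the mouse genome cannot be told apart. Over the 31 alone, the median was 0.10, with 4 genes passing as higher and 1 as lower.

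**Figure D4:**
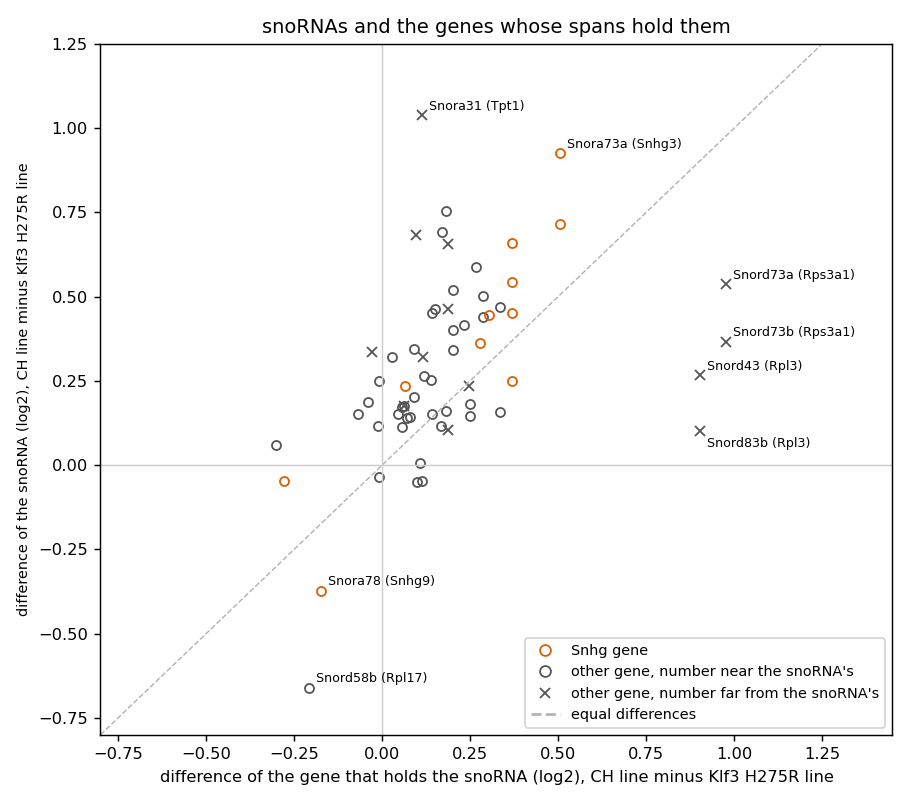
Difference of each snoRNA (vertical axis) against that of the gene whose span holds it (horizontal axis), both as CH line minus H275R line in log2 units, with Snhg genes in orange, other genes in grey, and crosses for genes whose probe set number is far from that of the snoRNA. Snora31 lies near 1.04 with its host at 0.11, the Snhg3 snoRNAs lie above their host, and the Rps3a1 and Rpl3 snoRNAs lie below theirs.

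CH homozygotes were next compared with WT, which asks what differs in embryos with little Klf3 RNA. Of the 93 members, 1 passed, Snord73a, and 0.0588% of all probe sets passed. It was higher by 0.60 ± 0.10 (SE, 1.51-fold, adjusted p = 0.0478, limma). Snora31 was 0.73 ± 0.16 (SE) above WT with an adjusted p of 0.186, Snhg3 was 0.51 ± 0.13 above with 0.250, and Snora75 was 0.46 ± 0.13 above with 0.339 (limma). For 11 members, these 4 among them, every CH homozygote lay above every WT array, beside 2.01% of all probe sets. Snhg3 and Snora75 did so only just, with Snhg3 at 9.09 in both CH homozygote 3 and WT 4, and Snora75 at 9.16 in CH homozygote 1 and 9.15 in WT 4. At an unadjusted p under 0.05, 19 members were higher and 2 lower, 21 in all, beside 8.95% of all probe sets. There were 34 without WT 4, beside 10.4%, and 11 without WT 1, beside 6.91%. The median difference was 0.17 for C/D members, 0.14 for H/ACA members and 0.11 for host RNAs, and without WT 4 it was 0.26, 0.24 and 0.11 in that order.

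Without WT 4, 5 members passed against WT: Snora31 by 0.90 (adjusted p = 0.0141), Snord73a by 0.65 (0.0201), Snhg3 by 0.61 (0.0909), Snord65 by 0.52 (0.0937) and Snora75 by 0.57 (0.0982), all adjusted p from limma. The share of all probe sets that passed was then 0.33%. WT 4 was singled out by its place among the CH arrays in these same values. It was the highest WT array for all 5 members, so leaving it out had to raise their differences. Whether WT 4 shares the background of the CH line was not tested. The median of the members was 0.22 without WT 4 and 0.14 with it. Snord73a itself did not pass without WT 1, WT 2 or CH homozygote 3, where 0 members and 0.0358% to 0.0537% of all probe sets passed. Of the 28 members that passed between lines, WT 4 lay above the 3 other WT arrays for 22, beside 65.9% of all probe sets that passed there as higher. It lay above every H275R array for 24, beside 72.2%, and another WT array did so for 14, beside 57.7%.

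Snord13 had the largest difference from WT of all members. With all 4 WT arrays it was 1.01 ± 0.52 (SE) with an adjusted p of 0.601 (limma), and the groups overlapped at CH homozygote 4 and WT 4. Without WT 4 it was 1.58 with an adjusted p of 0.192 (limma), and over all 8 arrays left out in turn it ranged from 0.70 to 1.58.

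Against H275R homozygotes, 3 members passed as higher in CH homozygotes, Snora31, Snord73a and Snora75, beside 0.164% of all probe sets passing and 0.0818% passing as higher. At an unadjusted p under 0.05, 35 members differed, beside 12.6% of all probe sets, 33 as higher. The median difference was 0.30 for H/ACA, 0.22 for C/D and 0.09 for host RNA members. The count of members that passed was 0 without H275R homozygote 1, beside 0.046% of all probe sets, and 1 without H275R homozygote 2 or CH homozygote 3, beside 0.107% and 0.0613%. It was 7 without CH homozygote 1, beside 1.4%. Without CH homozygote 3, 23 members had an unadjusted p under 0.05, beside 11.4%.

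Against H275R heterozygotes, 8 members passed, all higher in CH homozygotes, beside 0.951% of all probe sets passing and 0.473% passing as higher. They were Snord73a, Snora31, Snora75, Snhg4, Snhg3, Snhg1, Snord22 and Snora16a. The host Snhg4 had levels of 9.02, 9.25, 9.08 and 9.24 in CH homozygotes, against 8.74, 8.73, 8.77 and 8.81 in H275R heterozygotes, without overlap, and a difference of 0.38 ± 0.07 (SE, adjusted p = 0.0600, limma). Snhg1 differed by 0.45 ± 0.09, Snord22 by 0.55 ± 0.11 and Snora16a by 0.75 ± 0.15 (SE), with adjusted p of 0.0659, 0.0693 and 0.0703 (limma). At an unadjusted p under 0.05, 36 members differed, beside 14.6% of all probe sets. The count of members that passed was 2 to 4 without any 1 of the H275R heterozygotes or of CH homozygotes 3 and 4, beside 0.0537% to 0.345% of all probe sets. The comparisons of CH homozygotes with WT and with the 2 H275R groups all use the same 4 CH arrays.

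**Figure D5:**
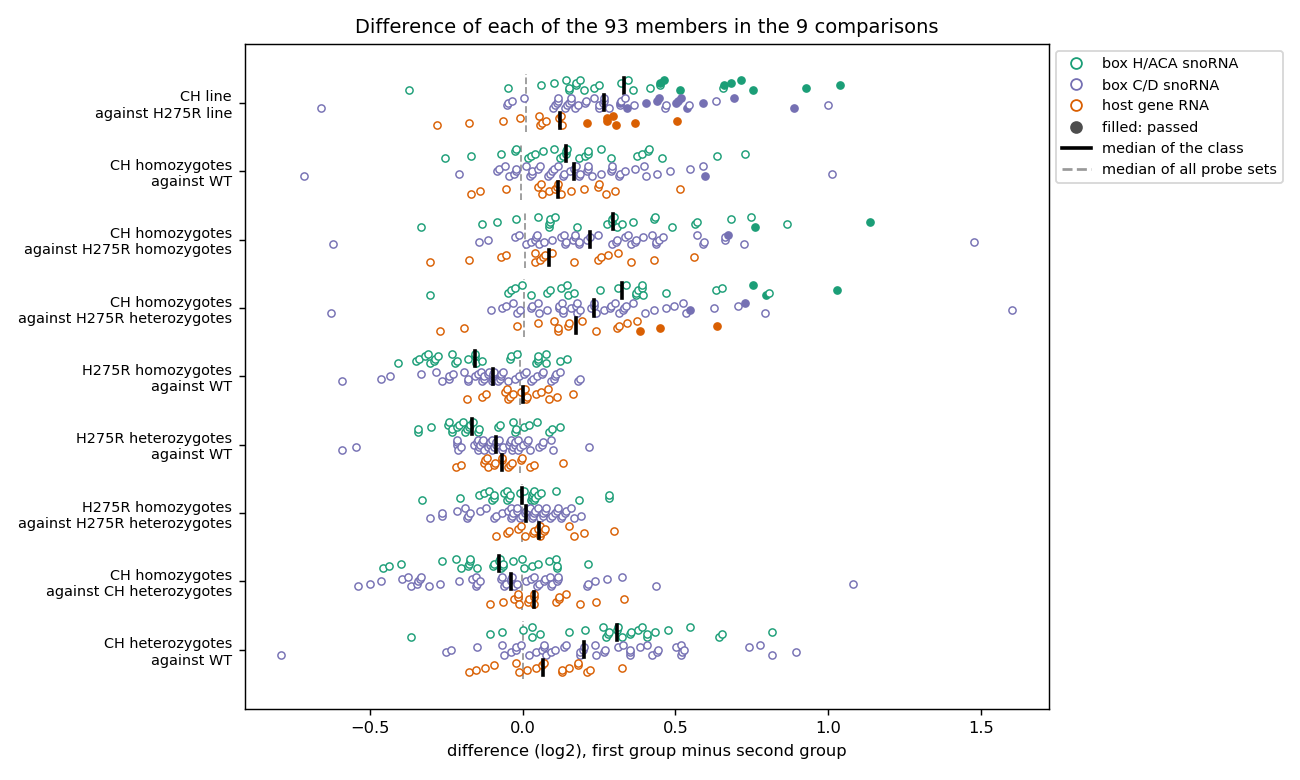
Difference in log2 units (horizontal axis) of each of the 93 members in each of the 9 comparisons (vertical axis), as first named group minus second, with H/ACA, C/D and host RNA members on separate lines, filled circles for those that passed, black bars for class medians and dashed lines for the median of all probe sets. The medians of both snoRNA classes lie above 0 where CH embryos are set against WT or H275R embryos, and between -0.17 and 0.01 in the other comparisons.

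Within the CH line no member passed between homozygotes, with little Klf3 RNA, and heterozygotes, beside 0.00511% of all probe sets. At an unadjusted p under 0.05, 2 members were higher and 5 lower in homozygotes, 7 in all, beside 5.44% of all probe sets, and without CH homozygote 4 there were 11, beside 5.06%. The median of the members was -0.03. Snora31 had a mean of 8.48 ± 0.13 in the 4 homozygotes and of 8.39 ± 0.02 in the 2 heterozygotes (SD), and the 95% interval of the difference ran from -0.32 to 0.49. For Snora75 it ran from -0.29 to 0.39, for Snhg3 from -0.13 to 0.50 and for Snord73a from 0.07 to 0.58. Snord73a, with 0.32 ± 0.12 (SE) and no overlap, had an adjusted p of 0.882 (limma). The group of 2 heterozygotes limits the precision here.

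The smallest p within the CH line was that of Snord82, with 10.62, 10.98, 11.06 and 11.37 in homozygotes, against 11.60 and 11.48 in heterozygotes. The ranges did not overlap, and the difference of -0.54 ± 0.16 (SE) had an adjusted p of 0.808 (limma). Snora44, 1 of the 2 Snora33 probe sets and Snord47, the last of which lies in Gas5, had differences of -0.46, -0.44 and -0.46 at an unadjusted p under 0.05. Snord49b, with -0.36, was the other one on the lower side. CH homozygote 1 had the lowest value of the homozygotes for all 5 of these snoRNAs. The 2 on the higher side were Snord73a and the host Snhg5, whose difference was 0.24.

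CH heterozygotes were also set against WT. No member passed, beside 0.00511% of all probe sets, and at an unadjusted p under 0.05 there were 24 higher and 1 lower, 25 in all, beside 5.94%. There were 37 without WT 4, beside 7.61%, 12 without WT 1, beside 5.49%, 12 without CH heterozygote 1, beside 8.29%, and 15 without CH heterozygote 2, beside 6.84%. The median was 0.31 for H/ACA, 0.20 for C/D and 0.07 for host RNA members, and without WT 4 it was 0.42, 0.29 and 0.08 in that order. Snord104 was 0.89 ± 0.26 above WT, Snora73a 0.82 ± 0.26, Snora31 0.64 ± 0.19 and Snord49b 0.52 ± 0.15 (SE), with adjusted p between 0.620 and 0.679 (limma). Without WT 4, Snora31 alone passed, by 0.81 with an adjusted p of 0.0911 (limma), beside 0.092% of all probe sets, and the median of all members was 0.27, against 0.20 with it. This comparison shares its WT arrays with that of CH homozygotes.

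In the H275R line no member passed against WT. For H275R homozygotes, 0.0128% of all probe sets passed, and at an unadjusted p under 0.05 there were 7 members, all lower, beside 5.06% of all probe sets. For H275R heterozygotes 0% passed, and 4 members, all lower, had an unadjusted p under 0.05, beside 3.87%. Snord19, in an intron of Gnl3, lay below all WT arrays in both, with differences of -0.59 ± 0.17 in H275R homozygotes and -0.54 ± 0.16 in H275R heterozygotes (SE), and adjusted p of 0.763 and 1.0 (limma). Snora61, with -0.35 ± 0.10 (SE), had the smallest p in homozygotes (adjusted p = 0.734, limma). Its values on WT 1, WT 2 and WT 3 were identical, at 7.12792, so the WT arrays understate its spread. The 2 comparisons share the WT arrays. The member medians were -0.07 in homozygotes and -0.09 in heterozygotes, and both were -0.02 without WT 4, where 2 members in each comparison had an unadjusted p under 0.05, beside 3.9% and 2.9% of all probe sets. Over all arrays left out in turn there were 2 to 10 such members in homozygotes, beside 3.9% to 6.16%, and 1 to 9 in heterozygotes, beside 2.87% to 5.32%. The highest count of both was that without WT 1.

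Between H275R homozygotes and H275R heterozygotes no member passed, beside 0% of all probe sets, and 2 had an unadjusted p under 0.05, beside 3.18% (1 to 4 with an array left out). These were Snora61, with a difference of -0.33, and a Snhg17 probe set, with 0.20. The member median was 0.03, and the 95% interval of the difference of Snora31 ran from -0.48 to 0.26. The change between homozygotes and heterozygotes was also compared between the 2 lines by an interaction term. No member passed and 2, Snord82 and Snhg5, had an unadjusted p under 0.05, beside 3.06% of all probe sets.

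Proteins that bind and process snoRNAs, and related RNAs, were read from lists of genes. Of the core proteins of C/D snoRNPs 4 were measured, and Nop58 alone passed, in the line comparison and in CH homozygotes against H275R heterozygotes, by 0.39 ± 0.08 (SE, adjusted p = 0.0799, limma) against those heterozygotes. None of the 4 H/ACA snoRNP proteins, Dkc1, Nhp2, Nop10 and Gar1, passed in any comparison, and their median difference between lines was 0.11. None of 12 snoRNP assembly factors and none of 5 factors of the decay pathway that acts on spliced host RNAs passed. Of 12 nucleolar genes of ribosomal RNA processing, Wdr43 passed in the same 2 comparisons as Nop58, and the median between lines was 0.05. Among the small Cajal body RNAs, which guide modification of spliceosomal RNAs and share the snoRNA structure, Scarna6 passed between lines and the other 4 did not. It ranged from 10.7 to 11.5 on the CH arrays, against 8.68 to 10.4 on the H275R arrays, a difference of 1.53 ± 0.31 (SE, adjusted p = 0.0271, limma), and from 9.13 to 11.2 in WT.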

How the data were processed

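The data are 17 Affymetrix arrays, each hybridised with RNA of 1 whole E12.5 mouse embryo. The deposited log2 values are the output of robust multiarray averaging (RMA) in Partek, per the labels and the methods of the study. A genome build is not given in the sources used here. Depth has no meaning for arrays, and the number of arrays limits the precision. The probe sets were named through the platform annotation, of which 23521 have 1 symbol, 1820 have several and 13796 are not listed. Every column of values belonged to a sample.

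Groups came from the sample titles. The values were fitted with 1 mean per group in limma 3.58.1 under R 4.3.3 (lmFit and eBayes), with p-values adjusted by Benjamini-Hochberg over all 39137 probe sets, and an adjusted p under 0.1, the false discovery rate of the study, counted as passing. Comparisons with CH heterozygotes, and of lines, used all 17 arrays, the others the 15 arrays of the other groups. Named were the markers Snora31, Snora75, Snord73a and Snhg3, all members that passed anywhere, per comparison the 3 with the smallest p and the 2 with the largest difference, and the Snhg genes. Of the other lists, those that passed or up to 4 with the smallest p could be named. The exceptions, named after their values were seen, are host genes, Snord73b, Snord99, Snord11, Snord70, Snord43 and Snord83b beside a host or a copy, and Snora33, Snora78, Snord47 and Snord58b. Members and lists were chosen with earlier results of these data known. The fit was tested on simulated data. Alternatives were a replicate block, other sets of arrays, prior variances, array weights, Student's test, threshold, filters, scaling, covariates and leaving out each array.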

Additional observations from a re-analysis of the deposited data

Results flagged for a closer look

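Of 135 tests of named members in groups of 4 arrays, 5 had 1 array far from the other 3. Chance alone gives about 5% of groups. Snora75 was 8.70 in H275R heterozygote 3, and 8.36 to 8.39 in the other H275R heterozygotes. Snord72 was 5.11 in H275R heterozygote 1, and 5.78 to 5.80 in the others. Snord35b was 8.08 in CH homozygote 1, and 8.45 to 8.52 in the other CH homozygotes. Snora61 was 7.33 in WT 4, and 7.13 in the other WT arrays, whose values were identical. Snord42b was 8.42 in WT 1, and 8.76 to 8.82 in the others.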

How the results depend on the processing

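Of 8631 refits of the differences of 45 named probe sets, 8298 kept their side of the threshold, 264 lost and 69 gained the call, and 0 reversed a call. The sign changed in 299, none of which passed before or after. The share of all probe sets that passed follows each count in parentheses. The filter on the median level of 6.73 tested 76 members. It left out Snord73a, whose mean level was 6.18, so that member could not pass with the filter in any comparison. For CH homozygotes against WT, where 1 member passed, 0 passed with only the arrays of the 2 groups (0.0153%), with Student's test (0.00256%) or with the filter on the median level (0.353%), 2 with the replicate block (0.0792%), and 0 to 5 with an array left out (0.0358% to 0.33%). Against H275R homozygotes, where 3 passed, 1 passed with only those groups (0.0383%), 0 with Student's test (0%), 6 with the filter (1.76%), 9 with the cartilage covariate (1.85%), and 0 to 7 with an array left out (0.046% to 1.4%). Against H275R heterozygotes, where 8 passed, 5 passed with only those groups (0.235%), 1 with Student's test (0.0869%) and 3 at an adjusted p under 0.05 (0.125%). In the same comparison 14 passed with the filter (6.57%), 13 among probe sets with 1 symbol (2.9%) and 14 with the replicate block (1.8%). With the cartilage covariate 20 passed there (4.65%), 19 of them as higher, and 2 to 11 with an array left out (0.0537% to 2.22%). Between the lines, where 28 passed, 18 passed with array weights (3.33%), 14 at an adjusted p under 0.05 (1.94%), and 5 to 30 with an array left out (0.769% to 6.28%). For CH heterozygotes against WT, 0 to 1 passed with an array left out (0.00256% to 0.092%). The cause of these shifts was not tested. The median r of same-numbered arrays was 0.010 (29 pairs, 8 over 0.1), and that of differently numbered arrays 0.0027 (85 pairs, 20 over 0.1). Values for same-numbered arrays ran from -0.14 to 0.43, too wide a spread to tell what the numbers share. Whether arrays of 1 number came from 1 litter or batch was not tested. Between the lines 40 members passed with the replicate block (7.4%), 27 of them among the 28. Without an array, a comparison has fewer values to estimate the spread.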
